A study of Mus musculus with 43 samples.

Results

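Withdrawal of antigen and continued low antigen were compared in mouse CD4 T cells 30 days after transfer. The comparison rests on 10 of 43 single-colour arrays, the 5 titled d30 off and the 5 titled d30 low, and covers 22180 genes with 1 probe set each. The T cells of every group came from AND mice, whose transgenic T cell receptor (TCR) recognizes a moth cytochrome c (MCC) peptide. They were Rag2-deficient (Rag2o/o) and marked by CD45.1. Those compared here had been put into iMCC recipients, whose transgenes let doxycycline switch on the peptide, built into the invariant chain, in dendritic cells. All these iMCC recipients had been given an anti-CD40 antibody and 100 µg/ml doxycycline around the transfer. In the off group the 100 µg/ml dose went on until day 10 and then stopped, so that the cells had seen a stronger stimulus and lost it 20 days earlier. In the low group the dose was 10 µg/ml from day 3 to day 30. Of the other day 30 groups, with 5 arrays each, int stayed on 100 µg/ml throughout and none had no doxycycline after day 3. Int (4 arrays) and low (5 arrays) of day 10 served as the state before withdrawal and its counterpart. The fit also held d10 none, d10 high and naive arrays, the last 2 from recipients other than iMCC mice that got no doxycycline. The antigen of this model comes from dendritic cells alone, its amount in the off recipients after day 10 was not measured here, and the labels give neither the age of the recipients nor whether the arrays of a group are separate animals. The p-values therefore measure the spread between these samples, and 5 arrays a group limit the precision.

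A CD4 T cell that meets its peptide passes the signal through calcium, which activates NFAT, and through the Ras and NF-kappaB pathways, and rapidly induces NR4A and EGR factors, IRF4 and cytokines such as IL-2. When the signal persists, inhibitory receptors such as LAG-3, PD-1 and TIGIT and the factor TOX stay high and the interleukin 7 receptor falls. When it ends, resting memory cells regain the interleukin 7 receptor and KLF2, which drives the egress receptor S1PR1. The question put to the data was which genes tell a weak signal that continues from a stronger one that has passed.

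The sorted cells expressed the genes of the sort at high levels. Cd3e lay at 10.67 to 10.93 log2 units in off and at 10.66 to 10.87 in low, and Cd4, Thy1 and Ptprc were likewise far above the array medians of 3.28 to 3.44. The B cell genes Cd79a, Ms4a1, Pax5 and H2-Ab1, the last also a myeloid gene, averaged 2.87 to 3.46 in off and 2.78 to 3.48 in low, at the level of the array medians. Of the 13 measured B cell markers, Cd22 (6.32 in off, 6.99 in low) and Ighm (9.45 in off, 9.70 in low) were well above it, and a further probe set of Ighm was lower in off by 1.92 log2 where every probe set was tested (adjusted p 0.0483). The mean over the 13 markers was 3.67 to 3.77 in the off arrays and 3.67 to 3.88 in the low arrays. None of the 13 genes was called between off and low, against 0.167% of all genes. The mean over 25 myeloid and dendritic markers was 3.72 to 4.05 in off and 3.59 to 3.68 in low, so that these groups did not overlap, although none of the 25 was called, 12 were above 0 and the median difference was -0.01 log2. S100a9 and S100a8, which neutrophils and monocytes make in quantity, had the largest differences of the 25. S100a9 stood at 5.51, 4.78, 7.07, 6.80 and 8.04 in off replicates 1 to 5, against 3.82 to 4.75 in low. Its difference of 2.35 ± 0.67 (SE) had an adjusted p of 0.181 in the limma test across all genes. Against the none group, S100a8 and S100a9 were called higher in off (3.44 and 2.87, adjusted p 0.0365 and 0.0458). In low their differences from none were 1.65 and 0.52 and were not called. Tyrobp (5.61 in off, 4.26 in low), Fcer1g (4.43 in off, 3.81 in low) and Lyz2 (3.55 in off, 2.71 in low) had the same sign, and H2-Eb1 (-0.69), Ltf (-0.43) and Cd14 (-0.31) the opposite one. The part of myeloid or B cell RNA in the differences between off and low was not tested.

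The off arrays were not alike. Across the 68 genes that were higher in int than in low on day 10, off replicates 1 and 2 averaged 6.32 and 6.38, and off replicates 3, 4 and 5 averaged 5.55, 5.58 and 5.56. The low arrays averaged 5.87 to 6.45 on these genes, the int arrays of day 30 6.69 to 6.97 and the none arrays 5.23 to 5.39. Off replicates 1 and 2 were thus near the upper end of the low arrays, while the other 3 were nearer to none. They were the 2 highest off arrays for 44 of the 68 genes (64.7%), against 11.1% of all genes. In the opposite set of 52 genes, those lower in int than in low on day 10, they were the 2 lowest for 22 (42.3%), against 10.9% of all genes. No label separates these arrays from the other off arrays. The comparison was therefore also run without them, a setting chosen after the values had been seen.

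**Figure D1:**
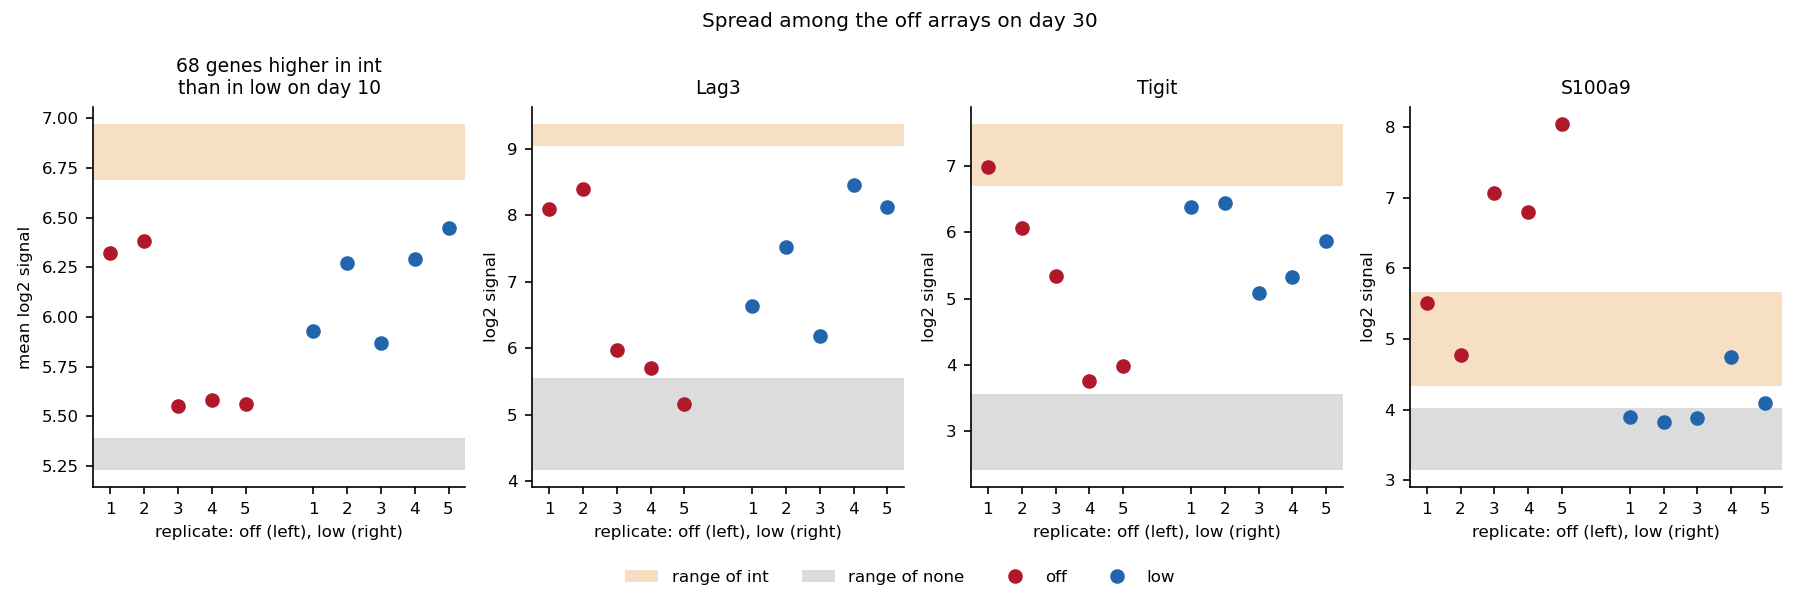
Log2 signal of the off arrays (left, replicates 1 to 5) and the low arrays (right) on day 30, as the mean over the 68 genes higher in int than in low on day 10 and for Lag3, Tigit and S100a9. Bands give the range of the 5 int and the 5 none arrays; off replicates 1 and 2 lie at 6.32 and 6.38 in the first panel, the other off arrays at 5.55 to 5.58.

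Few genes separated off from low beyond the spread between arrays. At an adjusted p under 0.05 in limma, 37 of 22180 genes were called between off and low (0.167% of those tested), 22 higher in off (0.0992%) and 15 lower in off (0.0676%). The genes lower in off, which are those higher under continuing low antigen, had the larger differences, with a median of -1.74 log2 against 1.15 for the genes higher in off. Of the 37, 24 differed at least 2-fold. An unadjusted p under 0.05 was reached by 1933 genes (8.72%). The median difference of all genes was -0.01 log2, and 48.6% of them were above 0. Arrays did not overlap at all for 178 genes with all 5 off arrays above all 5 low arrays (0.803%) and for 114 with all 5 below (0.514%). Of the called genes, 18 of 22 and 9 of 15 were of this kind.

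Mef2c, Irf8 and I730030J21Rik, all lower in off, and S100a11, Sidt1 and Arhgap5, all higher in off, were called under each of the 20 or 21 alternative settings tried that gave them a value. The other 31 calls were lost when only the off and low arrays were fitted, a fit in which the spread is estimated from 10 arrays and which called 8 genes. Leaving out 1 array at a time, 13 of the 37 kept their call in all 10 fits and 24 lost it in at least 1. Of the 37 calls, 18 remained without low replicate 5, 19 without off replicate 4 and 20 without off replicate 2. No called difference changed sign.

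**Figure D2:**
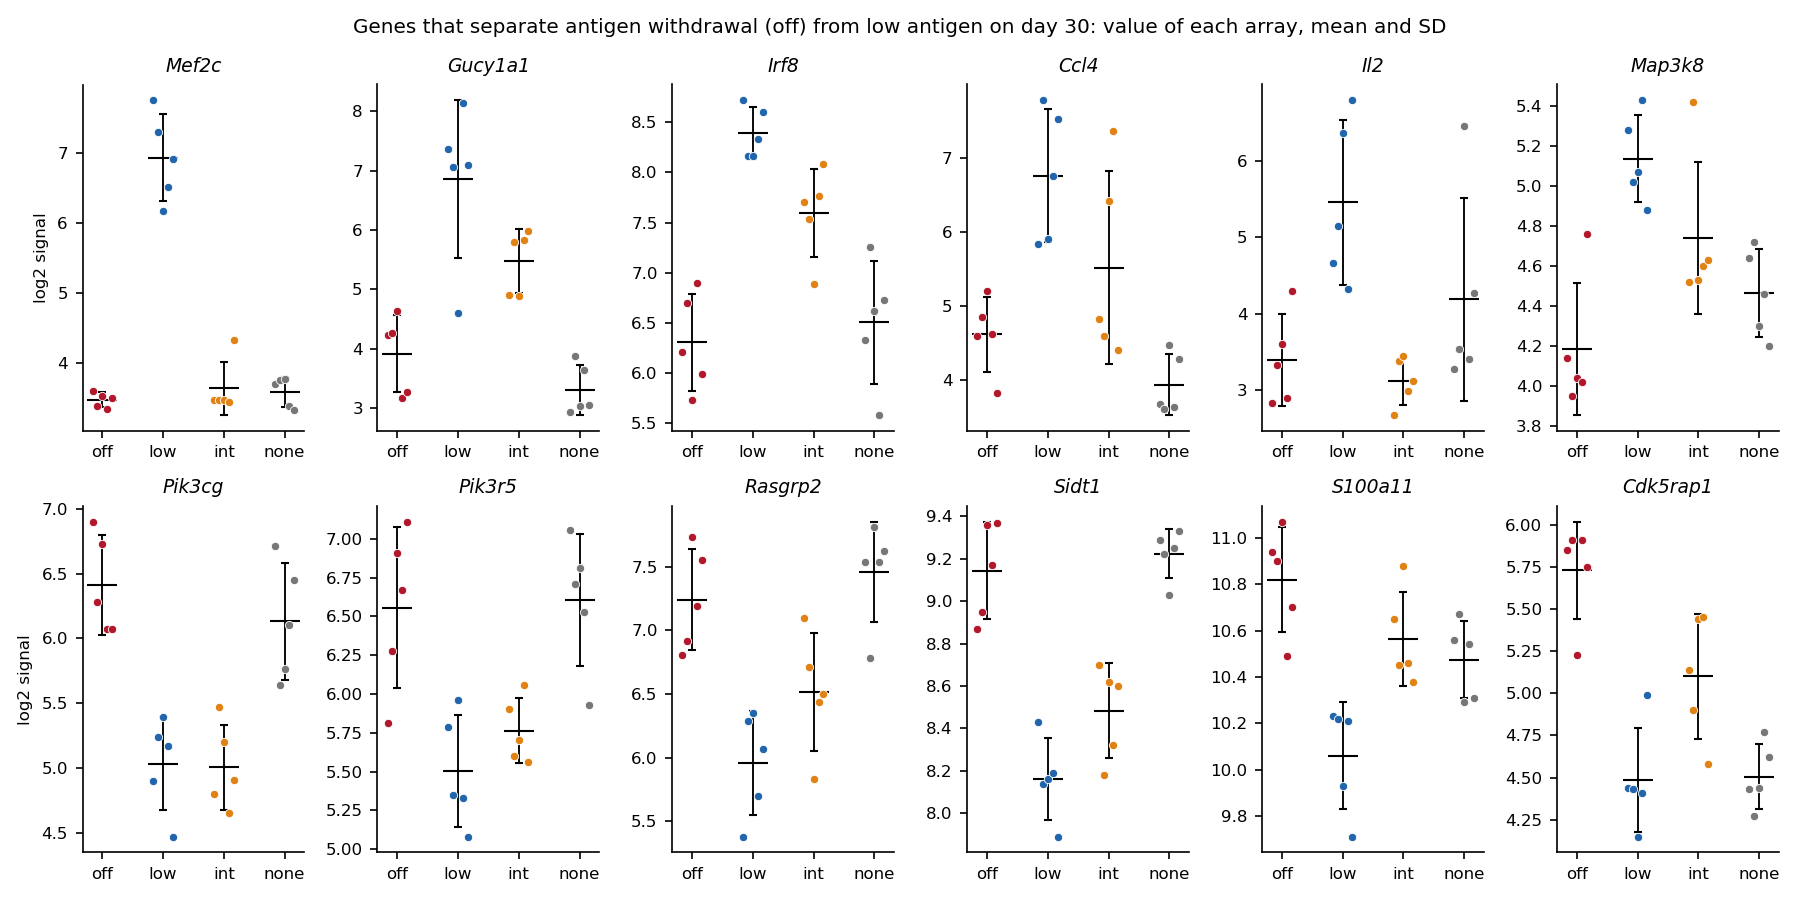
Log2 signal on day 30 of 12 of the called genes, with a point for each array and the mean and SD of each group of 5, in the order off, low, int, none. The upper genes are lower in off than in low, with Mef2c at 3.34 to 3.60 against 6.18 to 7.76; the lower genes are higher in off, with Sidt1 at 8.87 to 9.37 against 7.89 to 8.43.

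The promoters of 4 of these genes are shown because they belong to the transcription factor genes Mef2c and Irf8 and the cytokine gene Il2, called lower in off, and to Pik3cg, the gene of lowest p among those higher in off. They were read from RefSeq (GRCm38.p6), from 250 bases before the start to 50 after it, at the start farthest upstream, and 27 of the 37 called genes had such a window. The windows are chr13:83503784-83504083 (plus strand) for Mef2c, chr8:120736108-120736407 (plus) for Irf8, chr3:37125905-37126204 (minus) for Il2 and chr12:32208610-32208909 (minus) for Pik3cg. Capitals mark the NFAT core motif GGAAAA on either strand.
Mef2c: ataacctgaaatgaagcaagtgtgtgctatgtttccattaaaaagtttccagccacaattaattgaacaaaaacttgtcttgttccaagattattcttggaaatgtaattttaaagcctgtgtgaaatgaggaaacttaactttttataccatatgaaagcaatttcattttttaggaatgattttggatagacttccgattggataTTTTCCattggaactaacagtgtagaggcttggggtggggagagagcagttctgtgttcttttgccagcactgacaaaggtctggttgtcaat
Irf8: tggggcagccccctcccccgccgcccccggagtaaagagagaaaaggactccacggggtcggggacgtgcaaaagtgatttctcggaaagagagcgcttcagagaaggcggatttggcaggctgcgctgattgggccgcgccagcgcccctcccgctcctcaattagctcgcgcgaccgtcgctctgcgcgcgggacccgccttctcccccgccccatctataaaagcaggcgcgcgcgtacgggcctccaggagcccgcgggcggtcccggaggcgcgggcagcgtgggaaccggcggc
Il2: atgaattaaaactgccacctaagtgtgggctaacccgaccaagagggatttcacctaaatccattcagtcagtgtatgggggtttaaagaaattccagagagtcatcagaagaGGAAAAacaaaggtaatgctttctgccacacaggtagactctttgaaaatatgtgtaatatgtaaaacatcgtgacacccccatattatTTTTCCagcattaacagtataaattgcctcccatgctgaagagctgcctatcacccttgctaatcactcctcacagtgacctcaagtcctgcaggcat
Pik3cg: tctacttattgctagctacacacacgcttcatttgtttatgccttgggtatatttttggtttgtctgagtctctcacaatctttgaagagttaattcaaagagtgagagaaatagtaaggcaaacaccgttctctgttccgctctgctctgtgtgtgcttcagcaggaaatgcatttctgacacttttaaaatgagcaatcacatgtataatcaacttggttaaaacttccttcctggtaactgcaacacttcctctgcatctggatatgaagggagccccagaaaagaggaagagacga
The Il2 window held the motif 137 and 48 bases before the start, and the Mef2c window held it 43 bases before the start. Those of Irf8 and Pik3cg held none. The other motifs searched on both strands, AP-1 (TGANTCA), EGR (GCGTGGGCG), NR4A (AAAGGTCA), the MEF2 site and the interferon-stimulated response element, had no match in these 4 windows. Among called genes with a window, the NFAT motif was found in 5 of 15 higher in off and in 6 of 12 lower in off, against 26.1% of all genes and 23.4% of all 32851 windows of the table. A match of letters in such a window is a description and not a binding site.

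Mef2c encodes a MADS-box transcription factor known from muscle, neurons, B cells and myeloid cells. Its signal was 3.60, 3.38, 3.53, 3.34 and 3.49 in the 5 off arrays, against 7.76, 7.31, 6.18, 6.52 and 6.92 in the 5 low arrays. The off arrays sat at the floor of the scale and every low array was far above them. The difference was -3.47 ± 0.20 log2 (limma's SE), an 11.1-fold higher signal in low, with an adjusted p of 1.219e-16 in limma. The SD was 0.11 in off and 0.63 in low (n = 5 each). All 38 arrays outside the low group of day 30 lay between 3.17 and 4.32. The gene was thus high in that group of arrays and in no other. The 38 include the low group of day 10 (3.38 ± 0.14, SD, n = 5) and the int group of day 30 (3.63 ± 0.38, SD, n = 5). Its relatives Mef2a and Mef2d, with means of 6.21 and 7.91 in off, differed by 0.15 and 0.45 log2 and were not called. Of the B cell markers, Cd22 and Ighm were also higher in low, by differences that were not called (-0.68 and -0.25 log2), and the part of B cell RNA in the Mef2c signal was not tested.

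Irf8, a transcription factor of the interferon regulatory family that is best known from dendritic cells and B cells and is also induced in T cells, was measured at 6.21, 6.70, 5.73, 6.90 and 5.99 in off, against 8.72, 8.16, 8.16, 8.33 and 8.60 in low. The groups did not overlap. The difference was -2.09 ± 0.30 log2 (adjusted p 5.77e-05, limma), or 4.25-fold. Int on day 30 averaged 7.60 and none 6.50, so that low was the highest of the 4 day 30 groups and off lay next to none (off minus none -0.20, adjusted p 0.857).

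Gucy1a1, the alpha subunit of the soluble guanylate cyclase that senses nitric oxide, was at 4.24, 4.26, 4.63, 3.17 and 3.28 in off and at 7.37, 7.06, 4.61, 8.14 and 7.10 in low. Low replicate 3 lay just under the highest off array and the other 4 were well above. The difference was -2.94 ± 0.36 log2, with an adjusted p of 4.35e-06 in limma. The SD was 0.65 in off and 1.33 in low. Gucy1b1, the beta subunit with which it pairs, was less clear, with an off mean of 3.38 and a difference of -0.95 ± 0.33 log2 (adjusted p 0.355).

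Il2, the T cell growth factor, was at 2.83 to 4.30 in off and at 4.32 to 6.79 in low, so that the groups nearly touched. Its difference was -2.06 ± 0.44 log2 (adjusted p 0.029). Int averaged 3.12 and none 4.18, so Il2 was higher in low than in the group with the stronger continuing antigen. Low was not separated from none, whose highest array read 6.45 (low minus none 1.27, adjusted p 0.207). Ccl4, a chemokine that activated T cells release, was at 3.82 to 5.20 in off and 5.83 to 7.78 in low, a difference of -2.15 ± 0.47 log2 (adjusted p 0.032). Its neighbour in function Ccl3 spread from 2.85 to 6.81 in off and was not called (-1.83, adjusted p 0.393). The calls of Il2 and Ccl4 were lost without any 1 of 5 and 7 arrays, with adjusted p-values of up to 0.13.

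Map3k8, a kinase that links receptors to the ERK pathway, had 4.14, 3.95, 4.04, 4.02 and 4.76 in off, against 5.28, 5.02, 5.07, 5.43 and 4.88 in low. The difference was -0.95 ± 0.19 log2 (adjusted p 0.0158), with no overlap. Ctla2b, an inhibitor of cysteine proteases, differed by -1.74 ± 0.38 log2 (adjusted p 0.0315), with means of 4.70 in off, 6.44 in low, 6.06 in int and 3.54 in none. Its close relative Ctla2a ran from 7.01 to 7.37 in off and from 8.13 to 9.20 in low, without overlap but not called (-1.59, adjusted p 0.185). Probe sets of such near-identical genes may share signal, and the same holds for Klk1b27, a member of the kallikrein protease family (-2.24, adjusted p 0.0235), which was highest in int (7.27 on average).

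Taf1d, a subunit of the RNA polymerase I initiation complex, was lower in off at its chosen probe set (-1.33 ± 0.25 log2, adjusted p 0.00647). With the mean over its probe sets the difference was -0.43 (adjusted p 0.569), so its probe sets disagreed. I730030J21Rik and F830016B08Rik, genes without an assigned role here, differed by -2.73 and -1.42 log2 (adjusted p 7.641e-06 and 0.0235). The remaining 4 of the 15, Olfr743, Olfr1462, BC031361 and 1500012K07Rik, had means of 2.26 to 3.07 in off and 2.87 to 4.01 in low, close to the floor.

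Of the genes higher in off, Pik3cg had the lowest p. It encodes the catalytic subunit of PI3-kinase gamma, which G protein-coupled receptors activate. Its signal was 6.90, 6.28, 6.73, 6.07 and 6.07 in off, against 4.90, 5.24, 5.39, 5.17 and 4.47 in low. The groups did not overlap, and the difference was 1.38 ± 0.20 log2 (2.60-fold, adjusted p 8.73e-05, limma). Its regulatory subunit Pik3r5 was at 5.81 to 7.11 in off and 5.08 to 5.96 in low, overlapping through 1 off array, with a difference of 1.05 ± 0.24 (adjusted p 0.0424). The alternative regulatory subunit Pik3r6, near the floor at 3.29 in off, and the catalytic subunit Pik3cd, at 7.12 in off, differed by 0.15 and 0.22 log2 and were not called.

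Sidt1, a membrane protein of an RNA transporter family, was at 8.87, 8.95, 9.36, 9.17 and 9.37 in off, against 8.43, 8.14, 8.16, 8.19 and 7.89 in low. S100a11, a small calcium-binding protein that pairs with annexins, was at 10.94, 10.90, 11.07, 10.49 and 10.70 in off, against 10.23, 10.22, 9.93, 10.21 and 9.71 in low. Neither gene's groups overlapped. Sidt1 was higher in off by 0.98 ± 0.17 log2 (adjusted p 0.00194) and S100a11 by 0.76 ± 0.12 (adjusted p 0.000374). Sidt1 in off was close to none (9.22 on average), whereas the S100a11 mean of off was above those of int (10.56) and none (10.47). The S100a11 arrays of off overlapped those of int (10.38 to 10.88) and none (10.29 to 10.67). Its off minus none difference, 0.35, was not called (adjusted p 0.223).

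Cd7, an immunoglobulin-family receptor of T and NK cells, had the largest difference among the called genes higher in off, 1.73 ± 0.37 log2 (adjusted p 0.0293). It ran from 6.25 to 7.62 in off and from 4.12 to 6.52 in low, and low replicate 1 lay among the off arrays. Rasgrp2, which activates the integrin-regulating GTPase Rap1, was at 6.81 to 7.73 in off and 5.38 to 6.35 in low (1.28 ± 0.28, adjusted p 0.0311). Flna, an actin crosslinker, was at 8.08 to 8.50 in off and 7.04 to 7.77 in low (0.94 ± 0.17, adjusted p 0.00402). Arhgap5, a GTPase-activating protein, was at 4.17 to 4.66 in off and 2.64 to 3.39 in low (1.34 ± 0.24, adjusted p 0.00326). Farp1, a nucleotide exchange factor, and Ahnak, a large scaffold protein, were higher in off too, by 1.21 and 1.12 log2 (adjusted p 0.016 and 0.0419). Rasgrp2 lost its call without any 1 of 6 arrays and Ahnak without any 1 of 8, with adjusted p-values of up to 0.114 and 0.186.

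Further called genes higher in off included B3gnt5, a glycosyltransferase of glycolipid synthesis (1.47 ± 0.25, adjusted p 0.00194), Arrb1, which encodes beta-arrestin 1 (1.23 ± 0.27, adjusted p 0.0332), and Gprasp2, a sorting protein for G protein-coupled receptors (1.52 ± 0.29, adjusted p 0.00869). Cdk5rap1, a tRNA-modifying enzyme, was at 5.85, 5.91, 5.23, 5.91 and 5.75 in off, against 4.44, 4.43, 4.15, 4.41 and 4.99 in low (1.25 ± 0.21, adjusted p 0.00108). The kinase gene Rps6ka3, the mitochondrial ribosome gene Mrpl38, Zfp598, Rhno1, Dnah8, Pcnx3 and Gm10914 were higher in off than in low by 0.76 to 1.19 log2. For Rhno1 the mean over its probe sets was 0.42 (adjusted p 0.391). C1qb, a complement gene of macrophages, was higher in off by 0.77 ± 0.16 (adjusted p 0.0158) at means of 4.00 in off and 3.23 in low. Its partners C1qa and C1qc differed by 0.09 and 0.35 log2 and were not called. Csf1r averaged 3.47 in off and 3.12 in low, and Adgre1 averaged 3.01 in off and 3.02 in low. Tyrobp, Fcer1g and Lyz2, given above, were higher in off without being called.

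**Figure D3:**
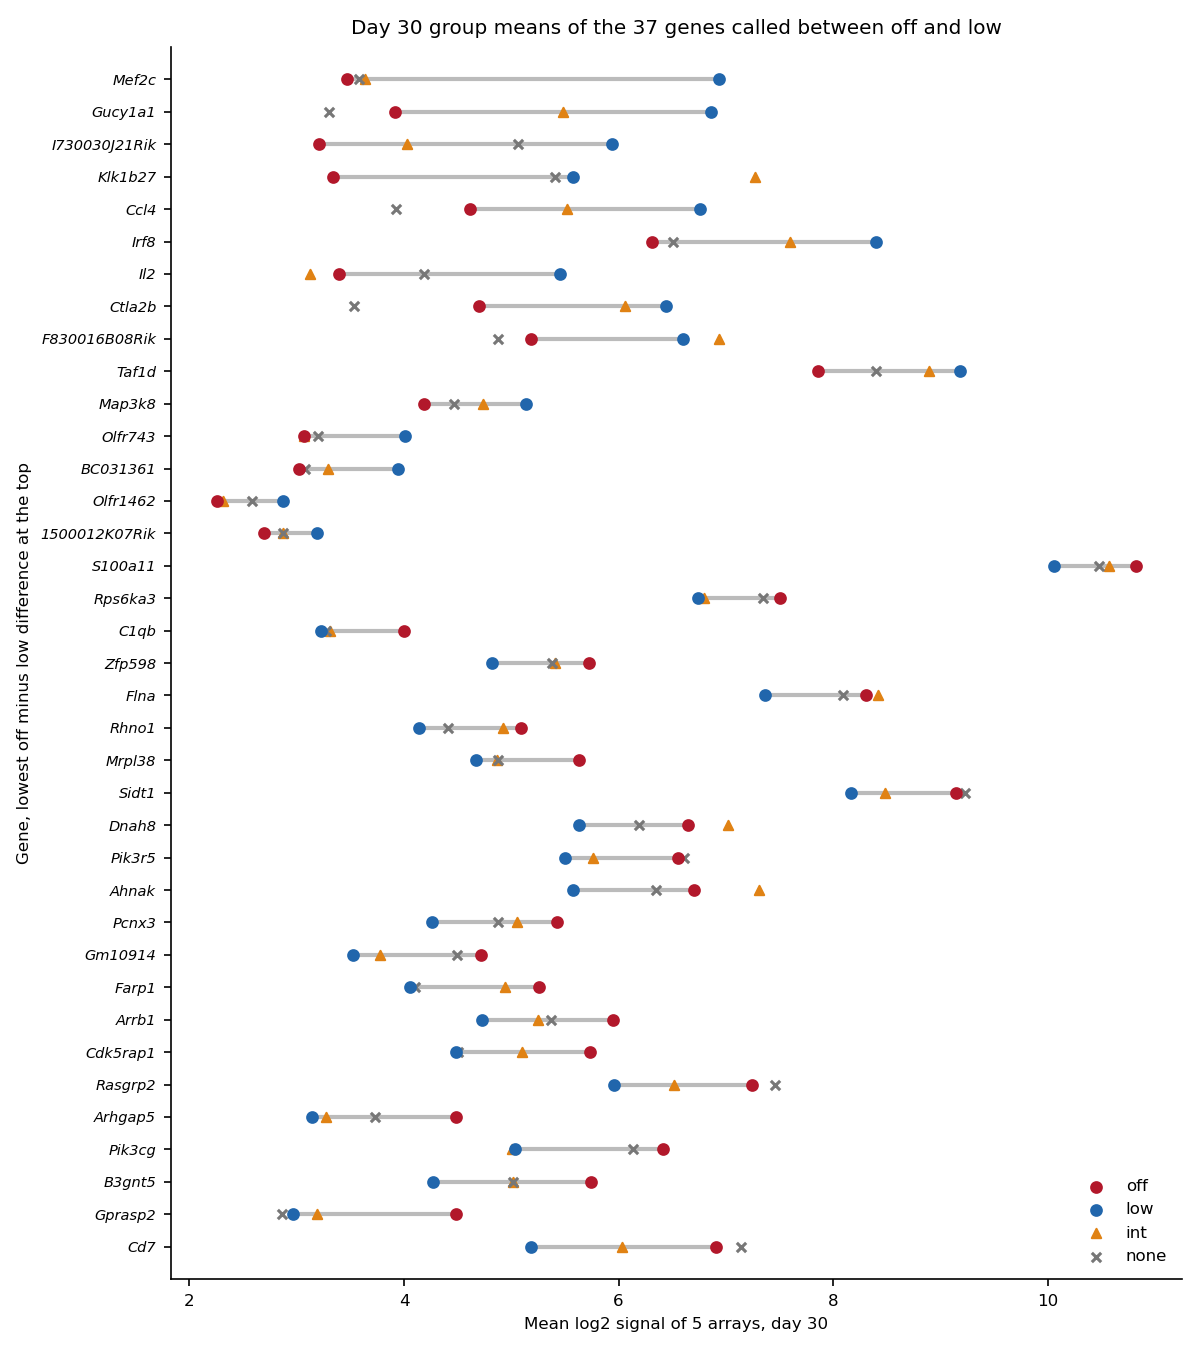
Mean log2 signal of 5 arrays in off, low, int and none on day 30 for the 37 called genes, ordered by the off minus low difference, with a line joining off and low. The off mean is below the low mean for 15 genes and above it for 22.

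The called genes were next placed beside the groups without antigen (none) and with stronger antigen (int) on day 30. For 33 of the 37, the low mean lay above or below all of off, int and none. The off mean lay outside the other 3 groups for 24. Choosing genes by off minus low favours such outlying means, so these counts are a description. Off minus none and low minus none share the 5 none arrays, so their values are given side by side only. The 37 genes were themselves chosen by the off and low arrays used here, which favours calls against none. Their counts are therefore a description and cannot be compared with the shares over all genes. Over all genes, 59 were called between off and none (0.266%) and 145 between low and none (0.654%). The first count was 24 without off replicate 1, 29 without off replicate 2 and 18 without both, and the second was 94 without low replicate 5. Of the 15 genes lower in off, 8 were called higher in low than in none and 2, I730030J21Rik and Klk1b27, were called lower in off than in none. Of the 22 higher in off, 6 were called lower in low than in none, namely Pik3cg, Pik3r5, Rasgrp2, Cd7, Sidt1 and Flna, and off minus none was between -0.23 and 0.28 log2 for these 6. Another 4, Cdk5rap1, Farp1, Gprasp2 and C1qb, were called higher in off than in none, by 0.73 to 1.62 log2, while low minus none was between -0.05 and 0.10. Leaving out off replicates 1 and 2 was chosen after seeing the values and leaves fewer off arrays, so the calls kept or lost are a description only. In that setting Cdk5rap1, Gprasp2 and C1qb were still called against none. Farp1 (0.82, adjusted p 0.349), I730030J21Rik (-1.73, adjusted p 0.106) and Klk1b27 (-2.37, adjusted p 0.0773) were not. The myeloid genes C1qb and S100a9 were higher in every off array kept than in those left out, and C1qa was not. The part of myeloid RNA in the calls against none was not tested.

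None of the genes of inhibition and lasting stimulation was called between off and low, against 0.167% of all genes. At that share, lists of this size would seldom hold a call. Lag3 was at 8.09, 8.39, 5.98, 5.70 and 5.16 in off, against 6.63, 7.52, 6.19, 8.46 and 8.13 in low, and the difference of -0.72 ± 0.42 log2 had an adjusted p of 0.645. Both groups spanned more than 2 log2 units, and off replicates 1 and 2 lay among the low arrays. Tigit differed by -0.60 (adjusted p 0.713), Pdcd1 by 0.41 (0.789), Ctla4 by -0.60 (0.412), Tox by 0.27 (0.77), Eomes by 0.15 (0.965) and Ikzf2 by 0.24 (0.915). The median difference of the 16 measured inhibitory receptors was -0.10 log2, against -0.01 over all genes. That of 13 chronic stimulation factors was 0.15.

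Set beside the same none arrays, 1 of the 16 inhibitory receptors was called higher in off and 3 in low. Of the 13 chronic stimulation factors, 3 were called higher in off and 2 in low. Over all genes the shares called against none were 0.266% for off and 0.654% for low. Lag3 and Ctla4 were called above none in low (2.44 and 1.30 log2, adjusted p 0.000663 and 0.000756). In off they were not (1.72 and 0.70, adjusted p 0.0592 and 0.187). Tigit exceeded none by 2.34 log2 in off (adjusted p 0.00158) and by 2.93 in low (1.22e-05). Tox exceeded none by 1.05 in off (adjusted p 0.00747) and by 0.78 in low (adjusted p 0.052). Cd81, a tetraspanin, was at 5.90 to 7.22 in off and 4.57 to 5.85 in low, without overlap but not called (1.13 ± 0.31, adjusted p 0.139). It exceeded none by 2.08 in off (adjusted p 0.000115) and by 0.95 in low (adjusted p 0.154). Cd22, a sialic acid-binding inhibitory receptor known from B cells, exceeded none by 1.67 in off (adjusted p 0.0137) and by 2.35 in low (4.93e-05). Off replicates 1 and 2 were picked for their high level on genes that include Tigit, so leaving them out lowers its excess over none by construction. Fewer off arrays then remain for every gene. In that setting the excess was 1.47 for Tigit (adjusted p 0.188), 0.82 for Tox (adjusted p 0.259) and 1.46 for Cd22 (adjusted p 0.242), none of them called. For Cd81 it was 1.74, still called (adjusted p 0.0224). These values are given as a description only.

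Without off replicates 1 and 2, chosen after seeing the values, off still differed from low in 37 genes, of which 20 were among the original 37. The 2 arrays were picked for their high level on genes that were higher in int on day 10, which include Lag3, Il21, Tigit and Eomes, so leaving them out lowers off on these genes by construction. The differences from low in that setting, -1.77 for Lag3, -1.97 for Il21, -1.46 for Tigit and -0.97 for Eomes, are therefore given as a description only. With all arrays, Eomes read 6.75, 6.86, 4.27, 3.27 and 4.43 in off, against 4.45 to 5.51 in low, and Il21 read 6.49, 6.09, 3.18, 3.96 and 4.23 in off, against 4.61 to 7.12 in low. The 2 off arrays were thus above every low array for Eomes and inside the range of the low arrays for Il21.

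None of 18 genes listed as TCR signal factors, which include surface receptors such as Cd5 and the factor Ikzf1, was called between off and low. Over all genes, 0.167% were called. Of the 18, 3 were above 0 in off minus low, and the median difference was -0.34 log2 (-0.01 over all genes). An unadjusted limma p under 0.05 was reached by 5 of them, all lower in off, against 8.72% of all genes in either direction. Nr4a1, an immediate target of the receptor, was at 5.89, 6.45, 6.12, 5.78 and 5.38 in off, against 5.99, 6.90, 6.97, 7.37 and 8.06 in low. Low replicate 1 lay among the off arrays. The difference of -1.13 ± 0.28 log2 had an adjusted p of 0.0805. Of 21 alternative settings 3 put it under the threshold, quantile normalization (0.0461), genes with a mean above 4 (0.0395) and the omission of low replicate 1 (0.0105), the low array nearest to off. The highest adjusted p of the 21 was 0.403. Irf4 (-0.95, adjusted p 0.224), Il2ra (-1.02, adjusted p 0.191) and Egr2 (-0.57, adjusted p 0.586) had differences of the same sign. Off minus none was -0.21 for Nr4a1 and -0.05 for Il2ra, and 0.81 for Irf4, and no such difference was called. Low minus none was 0.93 for Nr4a1, 0.97 for Il2ra and 1.76 for Irf4, of which only Irf4 was called (adjusted p 0.000287).

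Among 23 cytokine genes 1 was called, Il2, against 0.167% of all genes. Of the 23, 7 were above 0 in off minus low, with a median of -0.20 log2. Ifng was at 5.00 to 7.01 in off and 6.02 to 7.34 in low (-0.83, adjusted p 0.448). Among 19 genes of type 1 helper cells Ccl4 was the 1 called, and Tbx21, their lineage factor, had means of 7.24 in off and 7.07 in low (0.17, adjusted p 0.90). Klrd1, which encodes the CD94 receptor of cytotoxic cells, was lower in off without being called (-1.66, adjusted p 0.0875). It passed the threshold with quantile normalization (adjusted p 0.0483), over genes with a mean above 4 (0.0448) and without low replicate 4 (0.0152), the low array nearest to off, and its adjusted p was up to 0.207 in the other settings.

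None of 19 measured genes of naive and resting memory cells was called, against 0.167% of all genes. Of the 19, 15 were above 0 in off minus low (48.6% of all genes were), with a median of 0.14 log2. Il7r, the receptor that lets memory cells survive on interleukin 7, was at 9.98, 9.80, 10.42, 10.49 and 10.33 in off, against 9.11, 8.82, 9.49, 7.33 and 7.31 in low. All off arrays were above all low arrays, and off was close to none (10.29 on average). The difference of 1.79 ± 0.42 log2 missed the threshold with an adjusted p of 0.053. It passed with quantile normalization (0.0439), every probe set (0.0483), genes with a mean above 4 (0.0275) and without low replicate 1 (0.0381) or 3 (0.0228), the 2 low arrays nearest to off, and its adjusted p was up to 0.211 in the other settings. Klf2 (0.75 ± 0.20, adjusted p 0.118) and S1pr1 (0.68 ± 0.22, adjusted p 0.278) had the same sign and were not called.  Fewer cells of a type and less RNA per cell cannot be told apart in such bulk samples.

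Several other gene groups gave no call between off and low, where 0.167% of all genes were called and 48.6% were above 0. Medians of off minus low were 0.15 log2 for 26 interferon-stimulated genes (18 above 0), 0.03 for 28 DNA replication genes (18 above 0), -0.11 for 34 mitosis genes (8 above 0), -0.12 for 22 respiratory chain genes (6 above 0), -0.04 for 19 genes of glycolysis and nutrient uptake (7 above 0) and 0.17 for 17 integrins and adhesion genes (14 above 0). Mki67, a marker of dividing cells, was at 3.35 to 3.67 in off and 3.49 to 4.09 in low, near the floor in both. Foxp3, the regulatory T cell factor, was at 3.29 to 3.84 in off and 3.35 to 4.00 in low. A list of late low-antigen and kept genes, drawn up from earlier results on these arrays and so no independent evidence, did have calls. Of its 20 measured members, 2 were called higher in off, against 0.0992% of all genes, and 3 lower, against 0.0676%.

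**Figure D4:**
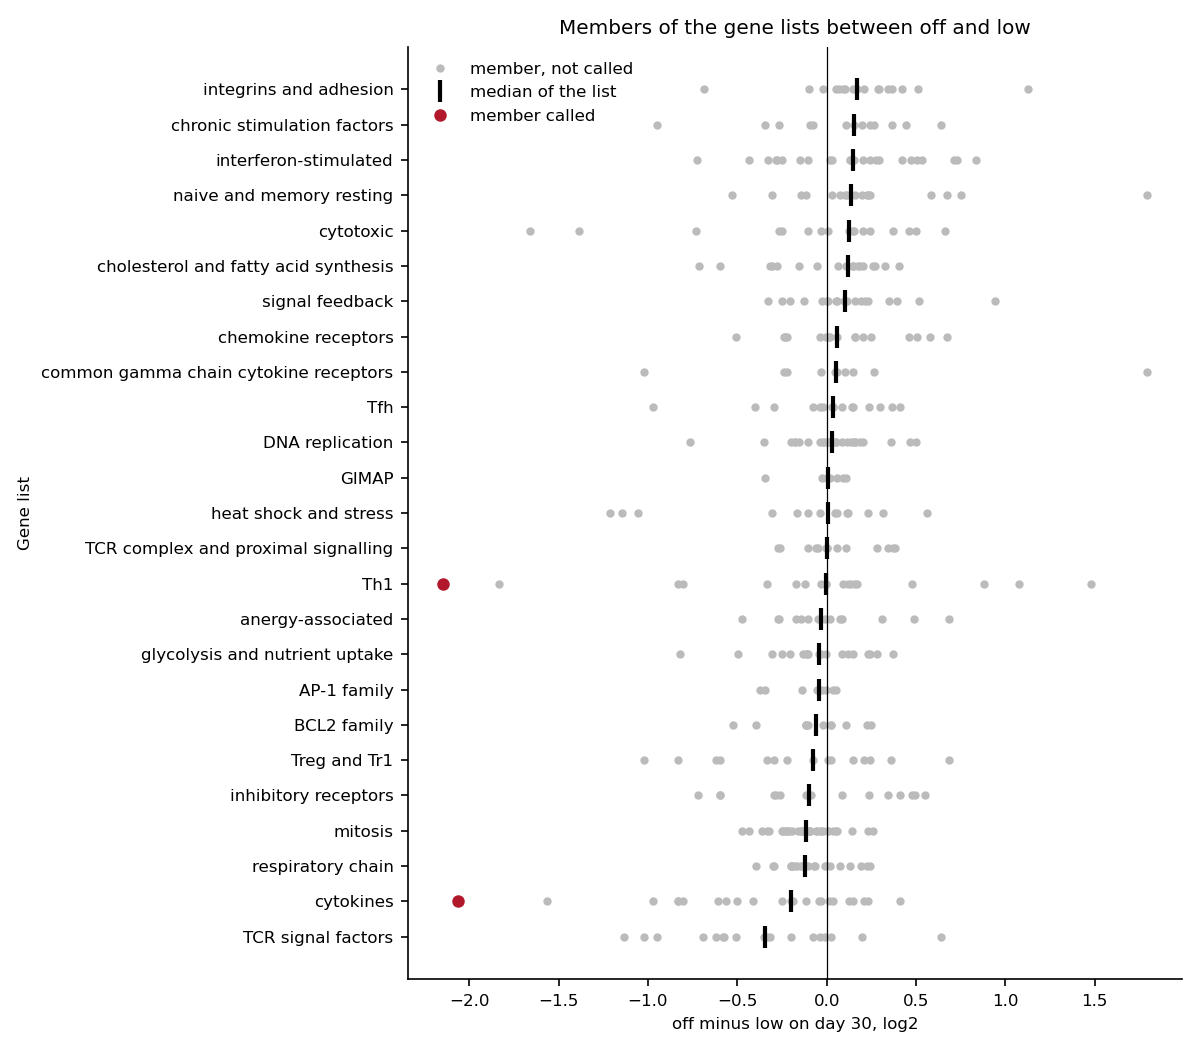
Off minus low on day 30 (log2) of each member of 25 gene lists, with the list's median as a bar and called members in red. Called members are Ccl4 in the Th1 list and Il2 in the cytokine list, and the medians run from -0.34 for TCR signal factors to 0.17 for integrins and adhesion.

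The state before withdrawal was read from day 10, when the later off recipients were still on the int schedule. Int and low differed in 120 genes on day 10 (0.541%), 68 higher and 52 lower in int, and in 78 and 79 without int replicate 3 or 4. Of the 68, 20 were above 0 in off minus low on day 30 (29.4%, against 48.6% of all genes), with a median of -0.17 log2; 3 were called lower in off and none higher. Of the 52, 35 were above 0 (67.3%), with a median of 0.33; 1 was called higher in off and none lower. The 4 genes called on both days, F830016B08Rik, I730030J21Rik, Map3k8 and Sidt1, all had opposite signs on the 2 days. Day and series of sorts go together in this study and cannot be told apart.

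Whether the difference from low was unlike on the 2 days was tested as an interaction, the off minus low difference of day 30 minus the int minus low difference of day 10, and 161 genes were called (0.726%), 94 above and 67 below 0. Il7r averaged 6.25 in int and 9.88 in low on day 10, and 10.20 in off and 8.41 in low on day 30, an interaction of 5.42 ± 0.61 log2 (adjusted p 1.686e-07). Tnfsf4, the ligand of OX40, averaged 7.70 in int and 2.98 in low on day 10, and 3.34 in off and 4.91 in low on day 30 (-6.28 ± 0.74, adjusted p 4.84e-07). Lag3, Nr4a1, Ifng and Irf8 had interactions of -4.23, -3.24, -3.10 and -3.31 log2, all called. Nr4a1 averaged 8.35 in int and 6.25 in low on day 10, and 5.92 in off and 7.06 in low on day 30.

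Ly6c2, a surface protein of memory and effector T cells, averaged 8.40 in int and 10.77 in low on day 10, and 10.34 in off and 8.86 in low on day 30 (3.85, adjusted p 0.000638). Il18r1, a subunit of the interleukin 18 receptor, averaged 4.05 in int and 6.79 in low on day 10, and 5.71 in off and 4.63 in low on day 30 (3.81, adjusted p 4.27e-06). Both were lower in int on day 10, like Il7r, and neither was called between off and low on day 30 (1.48 and 1.07, adjusted p 0.254 and 0.267). Sox4, a transcription factor gene, averaged 6.91 in int and 4.28 in low on day 10, but 3.98 in off and 4.13 in low on day 30, an interaction of -2.77 (adjusted p 0.0148) in which the day 30 groups were close to each other.

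Pdcd1 and Tox, which were not called on either day, had interactions of -0.17 (adjusted p 0.971) and -0.46 (adjusted p 0.753). Mef2c had an interaction of -3.56 (adjusted p 3.342e-11). Its mean was 3.47 in int on day 10 and 3.47 in off on day 30, against 3.38 and 6.94 in low on the same days. Of the 37 genes called between off and low, 24 were called in the interaction too, 14 of the 22 higher in off and 10 of the 15 lower, in each case with the sign of the day 30 difference. Both tests share the off and low arrays of day 30, by which the 37 were chosen. That favours calls in the interaction and the same sign. The count of 24 is therefore a description and cannot be compared with the 0.726% called over all genes.

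**Figure D5:**
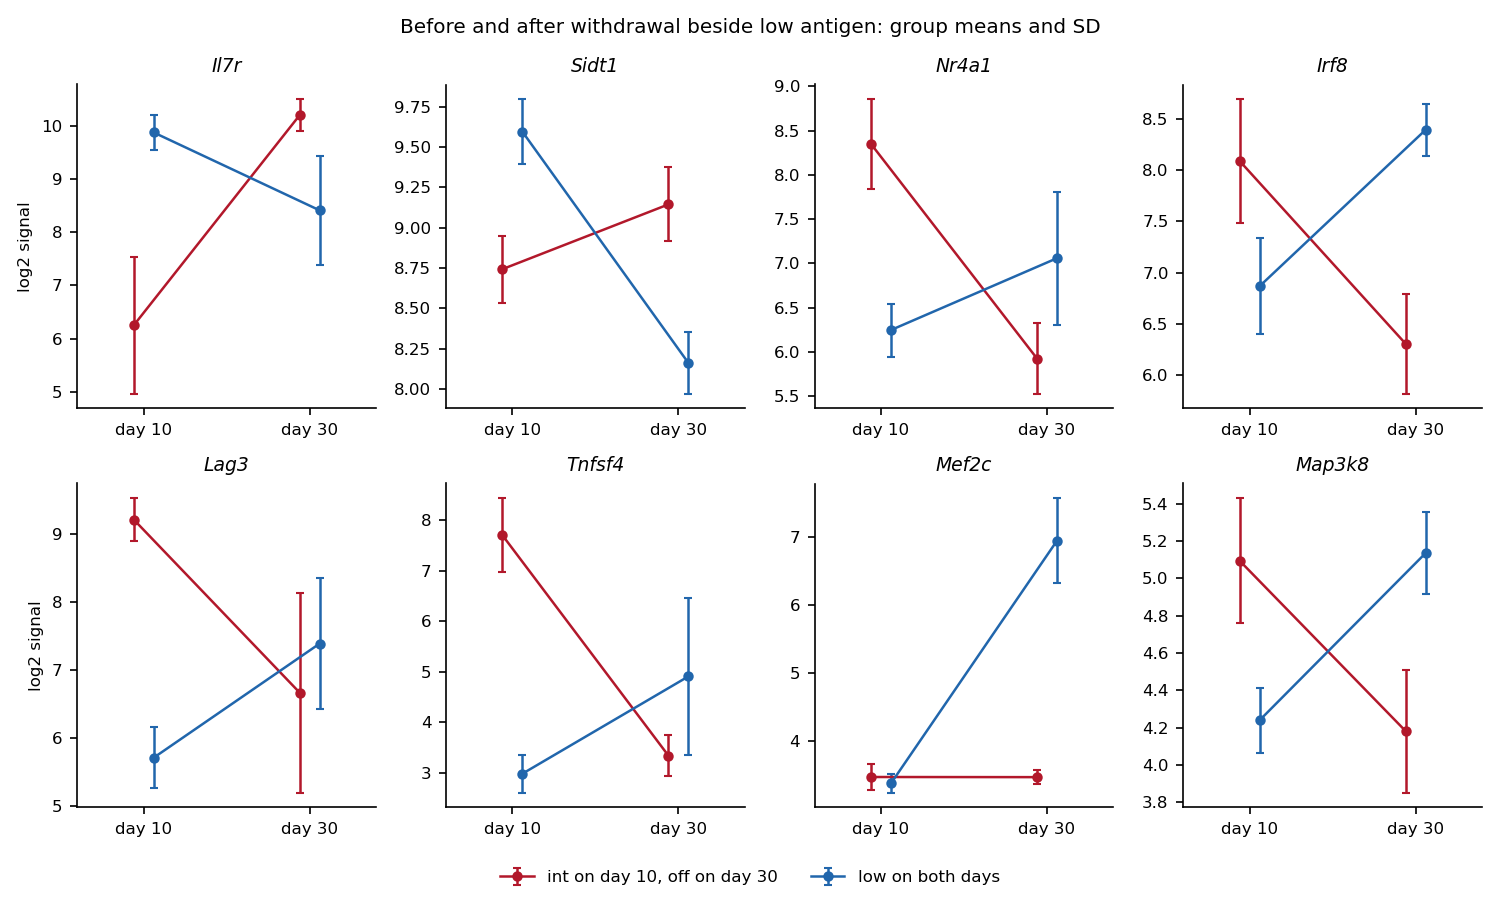
Mean log2 signal and SD of 8 genes on day 10 and day 30, for int on day 10 with off on day 30 and for low on both days, in groups of 4 or 5 arrays. Il7r lies at 6.25 and 10.20 on the first line and at 9.88 and 8.41 on the low line, while Mef2c is high in the low group of day 30 only.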

How the data were processed

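Total RNA of 43 sorted samples was amplified with the Ovation Pico WTA System V2 and labelled with the Encore Biotin Module, per the labels' protocols, and hybridized to 1 array each. The values were used as deposited by the authors, as log2 signals with 2 decimals. The log base was judged from their range of 1.46 to 13.87, and the sources used here do not give the background correction, summarization or normalization. Because small amounts of RNA were amplified and the scale has a floor, differences of dim genes may be understated.

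Of 41345 probe sets, 23521 had 1 gene symbol, 1814 several and 16010 none. Each of 22180 genes was represented by its single-symbol probe set of highest mean signal, 1082 of which had a choice, and 21994 matched RefSeq by gene ID. Groups came from the titles. limma 3.58.1 in R 4.3.3 fitted 9 group means to all 43 arrays (lmFit, then eBayes with a variance trend). Calls were made where limma's p, adjusted by Benjamini-Hochberg across the 22180 genes, was under 0.05. The fitting was tested on simulated data. The number of arrays in a group limits the precision.

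Named genes were up to 20 called genes in each direction, 22 fixed genes, up to 4 members with the lowest p of each of 32 lists (577 members, 527 measured) and, for the interaction and day 10, up to 6 called genes in each direction. Unnamed and predicted genes were left out of the ranking. Predicted genes printed by name, relatives of called genes (such as Ccl3, Gucy1b1, Mef2a, Pik3cd and Pik3r6) and marker genes were added after the values were seen. The groups, genes and lists were chosen with earlier results of these data known. Lists are described by counts and medians without a test. Alternatives were fitting only the compared groups, no variance trend, quantile normalization, median centring, a mean above 4, other uses of probe sets, array weights, the replicate block, leaving out 4 arrays of other groups and leaving out each array in turn. Leaving out off replicates 1 and 2 and testing all probe sets were added later.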

Additional observations from a re-analysis of the deposited data

Results flagged for a closer look

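In 8 of 106 groups of 5 arrays, over 53 genes, 1 array lay apart from the other 4 by Dixon's gap test at its 95% level, and chance alone gives about 1 such array in 20 groups. The highest off array stood at 6.56 for Arrb1, 4.76 for Map3k8, 2.62 for Olfr1462 and 5.82 for Rhno1. The lowest off array stood at 5.23 for Cdk5rap1 and 6.99 for Rps6ka3. Among the low arrays, the lowest stood at 6.36 for Rps6ka3 and the highest at 3.72 for Gprasp2. All of these genes but Gprasp2 and Cdk5rap1 also lost their call when some single array was left out.

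The difference between off and low on day 30 was unlike that between int and low on day 10 in 34 of the 53 genes, by limma's interaction test with adjustment over all genes. Over all 22180 genes, 161 were called in it (0.726%). The 53 are named genes called between off and low, and fixed genes. The interaction uses the same off and low arrays, which favours calls. The count of 34 is therefore a description and cannot be compared with that share. The interaction was below 0 for Lag3 (-4.23), Gucy1a1 (-3.94), Mef2c (-3.56), Il21 (-3.38), Irf8 (-3.31) and Nr4a1 (-3.24). It was also below 0 for Ccl4 (-3.22), Ifng (-3.10), Klk1b27 (-2.80), Eomes (-2.70), Irf4 (-2.60) and Tigit (-2.60), and for Egr2 (-1.94), Bcl6 (-1.81), Map3k8 (-1.81), Ctla4 (-1.32), Olfr743 (-1.30) and Olfr1462 (-0.85). It was above 0 for Il7r (5.42), Cd7 (2.81), Cdk5rap1 (2.10), B3gnt5 (2.10), Rasgrp2 (1.99) and Gprasp2 (1.99), for Pik3r5 (1.95), Sidt1 (1.84), S1pr1 (1.60), Arhgap5 (1.57), Pik3cg (1.55) and Klf2 (1.47), and for Flna (1.25), Zfp598 (1.18), S100a11 (1.08) and C1qb (0.96). All these values are on the log2 scale.

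Probe sets outside the gene table gave calls between off and low as well, in a test of all 41345 probe sets chosen after the values had been seen. Of 16010 probe sets with no gene symbol 19 were called, 12 higher and 7 lower in off. Of 1814 with several symbols 5 were called, all lower in off.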

How the results depend on the processing

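The off minus low test called 37 genes, and 46 (25 higher, 21 lower in off) with quantile normalization, 51 (36 higher, 15 lower) over genes with a mean above 4, and 30 (15 and 15) with array weights. It called 8 (4 and 4, 6 of them among the 37) with only the 2 groups fitted, where fewer arrays estimate the spread, and 20 to 38 when 1 array was left out. Of the 37 calls, 31 were lost with only the compared groups and 7 to 19 when a single array was left out, fewest without low replicate 2 and most without low replicate 5. Without off replicates 1 and 2, a setting chosen after seeing the data, 17 were lost; off minus none then called 18 genes in place of 59 and the interaction 202 (108 higher, 94 lower). Off minus none called 18 with only its groups, 19 with array weights and 24 to 66 without 1 array, fewest without off replicate 1 (24) or 2 (29). Low minus none called 145, and 74 with only its groups, 232 over genes with a mean above 4, 71 with array weights, 94 to 169 without 1 array (94 without low replicate 5) and 194 (97 and 97) with quantile normalization. Int minus low on day 10 called 120, and 208 with only its groups, 354 (168 higher, 186 lower) with array weights and 78 to 102 without 1 array, fewest without int replicates 3 (78) and 4 (79). The interaction called 161, and 264 with array weights, 164 (82 and 82) with quantile normalization and 117 to 183 without 1 array. The cause of the other moves was not tested. Over 3426 recomputed values of 165 genes, no called value changed sign, 214 lost a call and 17 gained one.

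Same-numbered off and low arrays correlated at -0.034 to 0.027 in their deviations from the group means over all genes. Of the 5 off arrays, 1 correlated best with its own number. Correlations over all genes, many of them dim, cannot decide whether same-numbered samples belong together. With the replicate number as a block, calls were 29 for off minus low, 57 for off minus none, 125 for low minus none, 99 for int minus low and 129 for the interaction. Signals near the array medians limit what can be read from dim genes.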

Other observations

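None of the genes of cytotoxic cells, of stress or of resting cells given here was called between off and low, against 0.167% of all genes. Klrk1, which encodes the NKG2D receptor, was at 3.68, 4.39, 4.43, 3.74 and 3.78 in off and at 4.08 to 7.12 in low (-1.38 ± 0.41 log2, adjusted p 0.202 in limma), and the off arrays overlapped the low ones. Klrd1, which encodes a receptor subunit of cytotoxic cells, differed by -1.66 ± 0.41 log2 (adjusted p 0.0875). Hspa1b and Hspa1a, inducible heat shock genes, averaged 8.25 and 6.91 in off, against 9.46 and 8.05 in low and 6.12 and 4.04 in none, with off minus low at -1.21 and -1.15 log2 (adjusted p 0.634 and 0.619). Vsir, an inhibitory receptor also called VISTA, lay at 7.29 to 7.72 in off and 6.89 to 7.13 in low, and the arrays did not overlap (0.50 ± 0.18, adjusted p 0.358). Dapl1, a gene of resting T cells, averaged 9.75 in off, against 10.51 in none, and was called lower than none in off (-0.76, adjusted p 0.0496) and in low (-1.34, adjusted p 1.17e-05), tests that share the none arrays.

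None of the following lists had a called member between off and low. With 0.167% of all genes called, lists of this size would seldom hold one. The median off minus low was 0.10 log2 for 20 signal feedback genes, against -0.01 over all genes, 0.13 for 17 cytotoxic genes, 0.12 for 19 genes of cholesterol and fatty acid synthesis, 0.06 for 17 chemokine receptors, 0.04 for 16 genes of follicular helper cells, -0.03 for 15 anergy-associated genes, -0.08 for 15 genes of regulatory and type 1 regulatory cells and -0.06 for 12 members of the BCL2 family.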
